A study of Homo sapiens with 6 samples.

Results

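Transcription factors that set B cell against plasma cell identity were examined in MM.1S, a human multiple myeloma cell line, after knockdown of PRKCN. The 10 genes were taken by symbol. PRDM1, XBP1 and POU2AF1 stand for the plasma cell side, and PAX5, BACH2, BCL6, SPIB, SPI1, EBF1 and MITF for the B cell side. All 10 symbols were listed among the 21850 genes of the count table, so none was absent. RNA was sequenced on day 3 after lentiviral infection with a PRKCN shRNA (shPRKCN, 3 libraries, genotype given as PRKCN knockdown) or with a scramble shRNA (shNT, 3 libraries, genotype given as WT). Both groups therefore carry a lentiviral hairpin, and the labels do not name which PRKCN hairpin was used. A second hairpin was not analysed here, so in these libraries loss of PRKCN and any other action of this hairpin cannot be told apart. In other assays the paper reports that PRKCN knockout also lowered the factor IRF4. It further reports that PRKCN overexpression raised IRF4 and BCMA (TNFRSF17). The labels do not say whether the libraries of a group came from separate cultures, so p-values measure only the spread between these libraries, which may be technical.

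A plasma cell arises when a B cell switches off the program that defines it and expands its secretory machinery. PRDM1 (BLIMP-1) is a repressor that silences B cell genes, XBP1 drives the endoplasmic reticulum and secretion genes, and POU2AF1 (OCA-B) is a coactivator of the octamer factors POU2F1 and POU2F2. In B cells PAX5 and EBF1 hold the identity in place, BCL6 and BACH2 repress PRDM1, and the ETS factors SPI1 (PU.1) and SPIB bind DNA with IRF4 or IRF8. MITF, best known from melanocytes, has also been described as a brake on IRF4 and on plasma cell formation.

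Libraries held between 35625564 and 37730003 counts. PRKCN, listed under its symbol PRKD3, was at 1262 ± 41.7 CPM with shNT and fell to 517 ± 23.4 CPM with shPRKCN (CPM, library-scaled counts after TMM normalization; ± gives the SD over 3 libraries here and below). Plasma cell markers were abundant, with summed levels of 7522 to 7652 CPM in shNT and 7332 to 7466 CPM in shPRKCN libraries over the 9 genes of the list. JCHAIN made up most of these sums, with means of 5358 CPM in shNT and 5412 CPM in shPRKCN libraries. CD27 alone, at 1 to 6 counts per shNT library, was close to the floor of 3 counts. B cell genes were unevenly present. MS4A1 (CD20) and CD22 were at or near 0, with 0 to 8 and 0 to 1 counts per library, but SYK (2711 to 2886 counts), BLNK (1139 to 1189) and CD79B (756 to 866) were clearly expressed in the shNT libraries, and the 22 listed genes of the B cell list summed to 279 to 287 CPM with shNT and 310 to 311 CPM with shPRKCN.

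All 3 plasma cell factors were lower in shPRKCN cells, XBP1 by far the most, while the B cell factors gave no common direction. XBP1 fell to 41.1% of its shNT level, PRDM1 to 68.7% and POU2AF1 to 78.6%. Of the B cell factors, SPI1 rose to 158% and MITF fell to 72.5%, whereas BACH2, BCL6, SPIB and EBF1 did not differ beyond the spread and PAX5 was at the floor in both groups. Differences are given as log2FC, the log2 of shPRKCN over shNT, and adjusted p-values come from edgeR's quasi-likelihood fit over every tested gene. A gene was called when its adjusted p was under 0.05 and its log2FC lay beyond 0.58 in size. Of the 9 factors that passed the filter on low counts, 1 was called lower (XBP1), against 10.6% of all 13971 genes tested, and 1 was called higher (SPI1), against 6.15%. At an adjusted p under 0.05 without the fold limit, 4 of the 9 were lower (XBP1, PRDM1, POU2AF1 and MITF), against 27.8% of all genes tested, and 1 was higher, against 26.5%. The groups did not overlap for the same 5 factors, with shPRKCN below shNT for 4 (29.8% of all tested genes) and above for 1 (29.0%). These counts cover 9 genes and were not tested against those shares.

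Levels of different genes were compared as FPKM, which divides by gene length. Per length, the 10 factors spanned nearly the whole range of the transcriptome, and the 3 plasma cell factors stood first. XBP1 had 468 ± 9.27 FPKM in shNT libraries (SD, n = 3), above 99.1% of the tested genes, POU2AF1 92.8 ± 0.467 FPKM (above 96.3%) and PRDM1 37.4 ± 1.12 FPKM (above 89.8%). SPI1 (2.27 ± 0.160 FPKM), BACH2 (1.52 ± 0.0913 FPKM) and MITF (1.23 ± 0.105 FPKM) followed. The remaining 4 lay below 0.2 FPKM in every shNT library. Neighbours in this order did not overlap in the shNT libraries except SPIB, at 0.0856 to 0.182 FPKM, and BCL6, at 0.0604 to 0.105 FPKM, whose order is not resolved. In shPRKCN libraries the order of the 10 means was identical, and SPIB and BCL6 again overlapped. The gene lengths behind these FPKM values, worked back from the counts, ran from 1935 bases for XBP1 to 49819 bases for EBF1. The latter is far longer than a usual messenger RNA, so the FPKM of EBF1 depends on the gene model. It could differ with a shorter model, but where the reads fall along the gene was not examined. The same holds for BACH2, at 18175 bases against 3091 for SPI1. In CPM, BACH2 stood above SPI1 (27.9 against 7.08 with shNT), so the order of these 2 factors rests on the gene models.

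**Figure D1:**
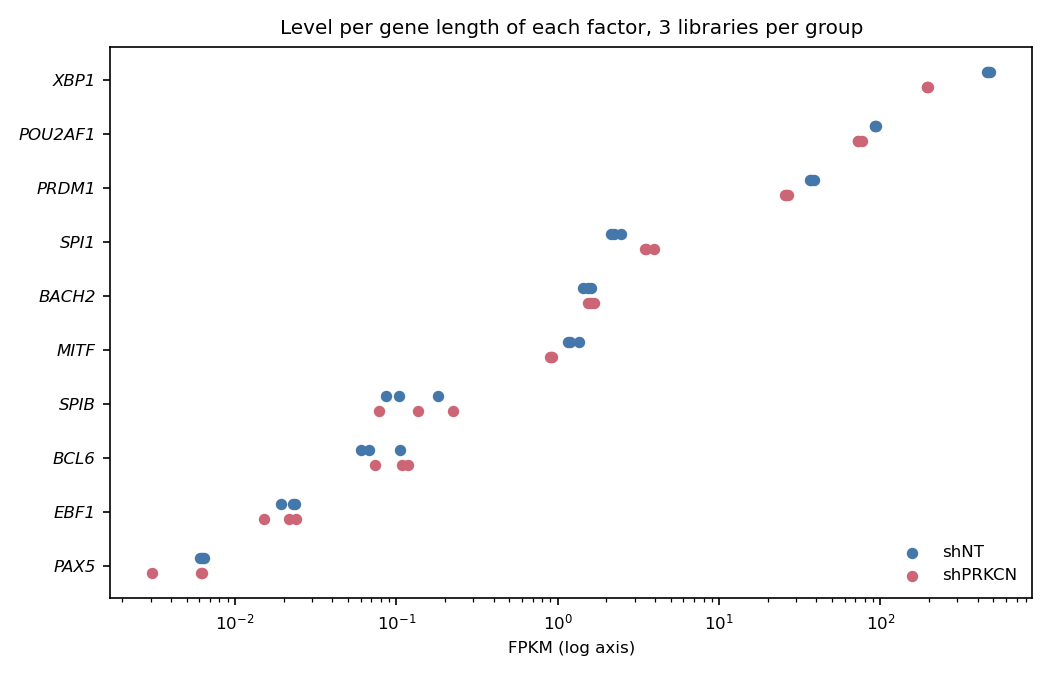
FPKM of the 10 factors on a log axis, with 1 point per library and the groups in separate colours. The 3 plasma cell factors lie between 25.6 and 478 FPKM in every library, SPI1, BACH2 and MITF between 0.891 and 3.92 FPKM, and the others below 0.23 FPKM.

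XBP1 lies on chromosome 22 (28794560 to 28800569, minus strand, GRCh38.p14) and encodes the transcription factor of the unfolded protein response that becomes active once its mRNA is spliced by ERN1 (IRE1). The shNT libraries held 32191, 32879 and 34907 XBP1 counts, and the shPRKCN libraries 13803, 14329 and 14043. The groups lay far apart, and the libraries of a group close together. The level fell from 913 ± 19.1 to 375 ± 9.06 CPM (SD, n = 3), with a log2FC of −1.28, its 95% interval reaching from −1.35 to −1.22 (SE 0.033; edgeR, adjusted p = 1.9e-43). Only 2.53% of the tested genes fell this far or further. The same share was 13.5% for PRDM1, 20.9% for POU2AF1 and 16.1% for MITF. As large a rise as that of SPI1, or a larger one, was seen for 6.26% of the tested genes. Counts per gene do not separate spliced from unspliced XBP1 mRNA, so the active form was not measured. A pseudogene, XBP1P1, is annotated by RefSeq and was not listed, and how its reads were assigned is not given in the sources used here.

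PRDM1, the repressor BLIMP-1, lies on chromosome 6 (105992690 to 106109938, plus strand). Its counts were 11074, 12038 and 11628 in shNT and 8099, 8048 and 8375 in shPRKCN libraries, with no overlap. The level fell from 317 ± 8.97 to 218 ± 2.23 CPM (SD, n = 3), with a 95% interval of the log2FC of −0.61 to −0.47. This interval includes the limit of 0.58, and PRDM1 was not called although its adjusted p from edgeR was 3.4e-22. With single libraries left out its log2FC stayed between −0.56 and −0.51.

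POU2AF1, on chromosome 11 from 111352255 to 111379275, showed the smallest drop of the 3. It had 18559, 19406 and 19625 counts in shNT libraries and 15021, 16084 and 15367 in shPRKCN libraries. The shNT values agreed closely, at 526 ± 1.83 CPM, and the shPRKCN libraries lay lower, at 413 ± 16.9 CPM (SD, n = 3). The log2FC was −0.35 (95% interval −0.42 to −0.28, edgeR, adjusted p = 3.0e-14). The intervals of XBP1, PRDM1 and POU2AF1 did not overlap each other, so the 3 factors fell by unequal amounts on the log2 scale. The summed level of the 3 genes was 1749 to 1767 CPM in shNT and 989 to 1034 CPM in shPRKCN libraries. In these bulk libraries, fewer cells that express a gene and less of its RNA per cell cannot be told apart.

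**Figure D2:**
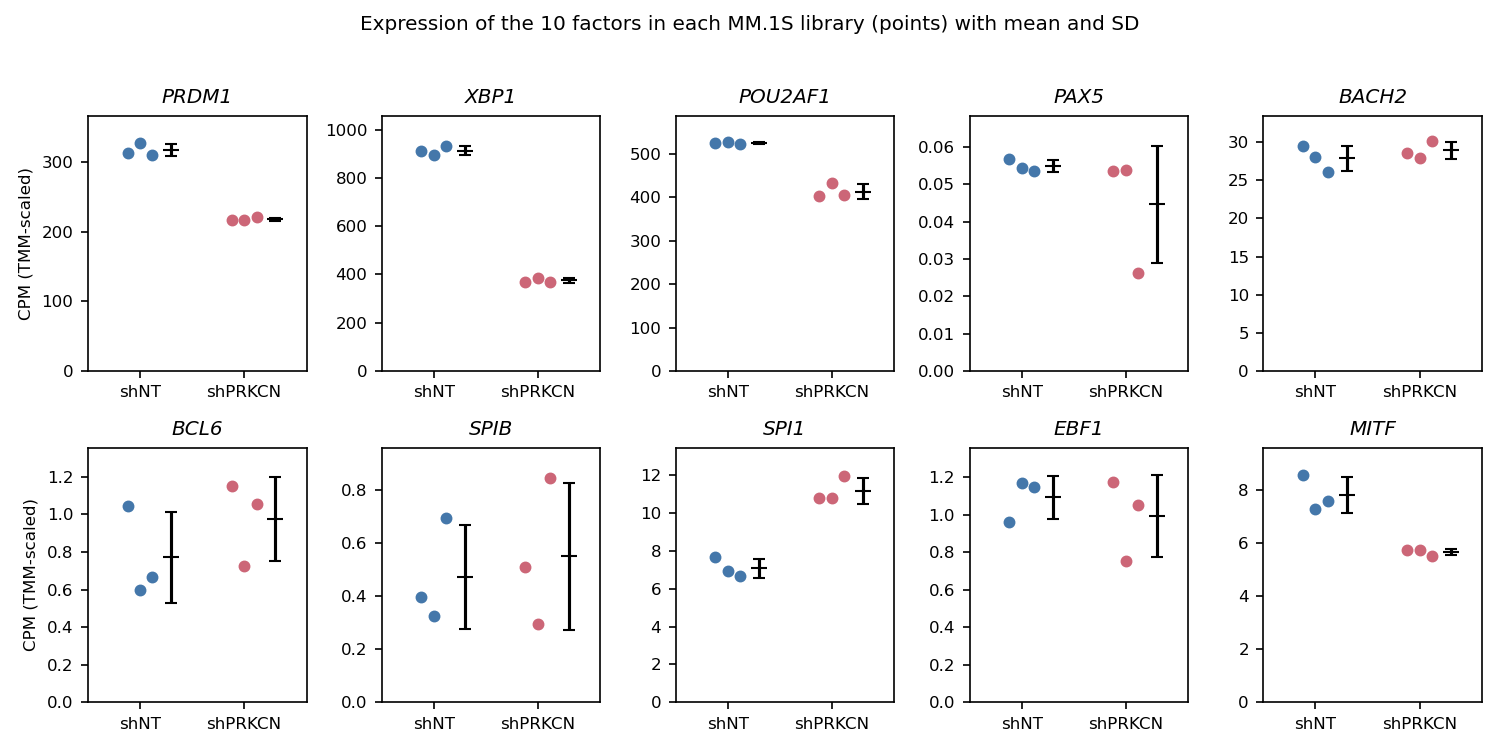
TMM-scaled CPM of each factor, with 1 point per library and the mean with SD beside each group of 3, each panel on its own axis from 0. The shPRKCN points lie below the shNT points for PRDM1, XBP1, POU2AF1 and MITF, and above them for SPI1. For BACH2, BCL6, SPIB, EBF1 and PAX5 the ranges of the 2 groups overlap.

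Because XBP1 and PRDM1 moved in the same direction, the RefSeq promoter windows of these genes are shown (250 bases before to 50 after an annotated start, GRCh38.p14, written in the sense of transcription). RefSeq gives each of them 2 windows here, so 4 windows are printed. Capitals mark the only motif match within them.
PRDM1, chr6:106086086-106086385, plus strand: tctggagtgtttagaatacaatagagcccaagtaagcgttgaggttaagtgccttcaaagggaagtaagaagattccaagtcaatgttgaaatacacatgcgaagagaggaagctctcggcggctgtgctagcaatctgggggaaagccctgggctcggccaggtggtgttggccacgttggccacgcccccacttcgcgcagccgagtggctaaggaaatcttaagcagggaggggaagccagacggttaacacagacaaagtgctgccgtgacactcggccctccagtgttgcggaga
PRDM1, chr6:106098691-106098990, plus strand: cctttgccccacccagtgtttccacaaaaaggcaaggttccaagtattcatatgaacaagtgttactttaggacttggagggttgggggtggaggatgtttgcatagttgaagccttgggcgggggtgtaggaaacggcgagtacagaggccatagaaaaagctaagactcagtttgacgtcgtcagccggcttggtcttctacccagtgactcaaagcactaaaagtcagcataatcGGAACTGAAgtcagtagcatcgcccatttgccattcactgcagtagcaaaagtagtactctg
XBP1, chr22:28800028-28800327, minus strand: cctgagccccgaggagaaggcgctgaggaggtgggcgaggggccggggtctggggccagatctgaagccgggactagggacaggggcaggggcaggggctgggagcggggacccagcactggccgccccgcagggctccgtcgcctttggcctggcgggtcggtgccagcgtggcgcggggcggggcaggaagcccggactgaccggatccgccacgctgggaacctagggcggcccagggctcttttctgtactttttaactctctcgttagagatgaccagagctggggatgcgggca
XBP1, chr22:28800520-28800819, minus strand: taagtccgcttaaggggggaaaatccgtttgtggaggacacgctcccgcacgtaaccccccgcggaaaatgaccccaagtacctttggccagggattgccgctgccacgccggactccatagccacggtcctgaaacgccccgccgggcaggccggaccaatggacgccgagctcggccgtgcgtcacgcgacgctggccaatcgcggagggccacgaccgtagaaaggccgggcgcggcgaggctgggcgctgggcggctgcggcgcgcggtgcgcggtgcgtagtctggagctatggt
Exact letters were searched on both strands in all 13 windows found for 8 of the 10 factors. The ETS-IRF composite element, searched as GGAANNGAA, occurred in the second PRDM1 window as GGAACTGAA, starting 12 bases before the annotated start, and in the EBF1 window as GGAAGTGAA. It occurs in 7.79% of all 35116 RefSeq windows. AGTGAAAG, a PRDM1 core, was found in the EBF1 window alone, where it overlaps the ETS-IRF match, and in 1.34% of all windows. None of the 13 windows held the interferon-stimulated response core GAAANNGAA (8.11% of all windows), the octamer ATGCAAAT (1.77%), the XBP1 element TGACGTGG (0.729%) or the E-box CACGTG (7.26%). The XBP1 windows were rich in G and C, at 70.3% and 68.7%, against 54.3% and 48.3% for PRDM1 and a median of 58.7% over all windows. These matches describe letters in a window and say nothing about binding.

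SPI1 was the only factor that rose. This ETS factor, PU.1, works in B cells and in myeloid cells, and lies on chromosome 11 from 47354860 to 47378547. Counts of 270, 254 and 250 with shNT stood against 403, 400 and 454 with shPRKCN, with no overlap between the groups. The level rose from 7.08 ± 0.506 to 11.2 ± 0.681 CPM (SD, n = 3), with a log2FC of 0.66 (SE 0.107, 95% interval 0.44 to 0.87, edgeR, adjusted p = 2.8e-07). On the log2(FPKM + 1) scale the change was 0.50, under the limit, where adding 1 shrinks the fold of a gene this low. Of the 9 myeloid markers 5 were listed, with summed levels of 0.534 to 0.878 CPM in shNT and 1.55 to 1.78 CPM in shPRKCN libraries. S100A9 made up most of this sum (8 to 24 counts with shNT, 49 to 56 with shPRKCN), while LYZ had 0 to 2 counts, CSF1R 0 to 5 and CD14 1 to 9 over the 6 libraries, and MPO and ELANE were not listed. Their part in the SPI1 result was not tested. SPIB (chromosome 19, 50418938 to 50431314, plus strand), its close relative, had 14, 12 and 26 counts in shNT and 19, 11 and 32 in shPRKCN libraries, which overlap throughout. Its log2FC was 0.21 with a 95% interval of −0.66 to 1.08, which includes both 0 and the rise seen for SPI1.

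MITF, on chromosome 3 from 69739464 to 69968332 (plus strand), was the only factor of the B cell side that decreased. It had 303, 268 and 284 counts in shNT libraries and 215, 213 and 210 in shPRKCN libraries. All shPRKCN values lay below all shNT values, with means of 5.67 ± 0.124 and 7.82 ± 0.676 CPM (SD, n = 3). The log2FC of −0.46 (95% interval −0.71 to −0.22, edgeR, adjusted p = 0.00092) did not reach the fold limit, although the interval includes it. Of its relatives, TFEB had a log2FC of −0.17 (edgeR, adjusted p = 0.137) and TFE3 of 0.04 (edgeR, adjusted p = 0.467). TFEC, named after its values were seen because it has a mean under 50 counts, decreased to 4 to 20 counts with shPRKCN against 46 to 91 with shNT (log2FC −2.26, SE 0.378). Melanocyte genes that MITF controls were near the floor. Of the 7, TYR and MLANA were not listed, TYRP1 and SLC45A2 had 0 to 1 counts, DCT 6 to 15 and TRPM1 1 to 8. Only PMEL was tested, at 34 to 43 counts with shNT and 19 to 25 with shPRKCN (log2FC −0.82, edgeR, adjusted p = 0.043). The summed level of this list was 1.41 to 1.78 CPM in shNT and 0.807 to 1.00 CPM in shPRKCN libraries.

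BACH2, a repressor of PRDM1 in B cells that lies on chromosome 6 from 89926528 to 90296843, differed by less than the spread between libraries. Its counts were 1041, 1030 and 978 in shNT and 1070, 1039 and 1147 in shPRKCN libraries. The groups overlapped, with 27.9 ± 1.68 and 28.9 ± 1.15 CPM (SD, n = 3). The log2FC of 0.05 had a 95% interval of −0.07 to 0.18 (edgeR, adjusted p = 0.478), which holds no change as large as that of any of the 5 factors above that passed an adjusted p of 0.05. BCL6 (chromosome 3, 187721377 to 187745468, minus strand), the repressor of the germinal centre, had 37, 22 and 25 counts in shNT and 43, 27 and 40 in shPRKCN libraries. Its log2FC was 0.34 with a wide 95% interval of −0.36 to 1.05, and the groups overlapped. EBF1 (chromosome 5, 158695920 to 159099916, minus strand), which specifies the B lineage, had 34, 43 and 43 counts against 44, 28 and 40, with a log2FC of −0.14 and a 95% interval of −0.77 to 0.50. At this depth no change of BCL6 or EBF1 was detectable within these wide intervals.

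PAX5, the factor that keeps B cells committed, was effectively not detected. It lies on chromosome 9 (36833269 to 37034268, minus strand) and had 2 counts in every shNT library and 2, 2 and 1 with shPRKCN, all at or under the floor of 3 counts. It did not pass the filter on low counts and was not tested in the fit across genes. No fold is given for it. A 2-sided exact permutation test of its log2(CPM + 0.1) gave p = 0.3, where 0.1 is the smallest p that 3 libraries against 3 allow.

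**Figure D3:**
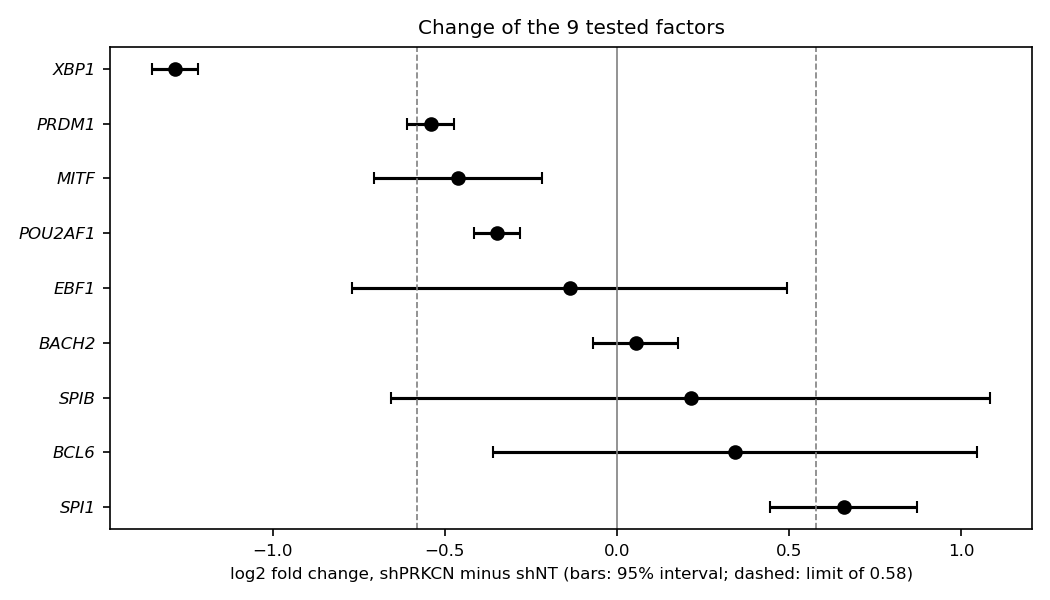
Log2FC of the 9 tested factors with its 95% interval from edgeR, with dashed lines at the limit of 0.58 in both directions. XBP1 lies beyond the lower limit. The intervals of PRDM1, SPI1 and MITF include a limit but not 0, and those of BCL6, SPIB and EBF1 are wide and include 0.

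Genes with the most similar profile were sought for the 6 factors with a mean of at least 50 counts, by Pearson correlation of log2 CPM with each of 11658 genes over the 6 libraries, which form 2 groups. The nearest were NEIL3, BRI3BP and MAP3K13 for PRDM1 (each r above 0.999), FOS, LAMP5 and LMNB1 for XBP1, and TIMELESS, NRM and DBF4B for POU2AF1. LTBP4, CDH17 and TNFRSF10A-DT came nearest to SPI1, and PA2G4, TMEM14C and SPTLC1 to MITF. For XBP1 1815 genes had an r above 0.95 and for PRDM1 1806, and all these profiles share the difference between the 2 groups. BACH2 had 8 such genes, led by LOC105378536, ADAT1 and C18orf25. How many such genes chance alone would give among 11658 genes over 6 libraries was not tested.

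Other factors of B cell and plasma cell development moved in both directions. Of the 26 in the list 24 were listed and 22 tested. IRF4, the factor the study follows and a shared driver of plasma cells, stood at 624 ± 12.5 CPM in shNT and 173 ± 3.19 CPM in shPRKCN cells (SD, n = 3). At a log2FC of −1.85 it fell further than XBP1, PRDM1 or POU2AF1. ID3, an inhibitor of E proteins, rose to 501 to 549 counts with shPRKCN against 177 to 233 with shNT (log2FC 1.26, SE 0.107), and was the single gene of the list called higher. MYBL1 (−1.33 on the log2 scale) and ZBTB20 (−0.70) were called lower with IRF4. ZBTB20 was not called without shNT replicate 2 (−0.53), on log2(FPKM + 0.1) (−0.33, limma, adjusted p = 0.112) or on log2(FPKM + 1) (−0.059, limma, adjusted p = 0.057). At an adjusted p under 0.05, 6 of the 22 were higher and 10 lower, beside 26.5% and 27.8% of all genes, and 1 was called higher and 3 lower, beside 6.15% and 10.6%. Their median log2FC was −0.08, beside 0.0012 over all genes tested. IRF8, the other IRF partner of SPI1 and SPIB, had a log2FC of −0.22 (edgeR, adjusted p = 0.044).

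Of the partners and regulators of the 10 factors, 22 of 23 were tested, and 4 were called lower and 0 higher, beside 10.6% and 6.15% of all genes. POU2F1, an octamer factor to which POU2AF1 binds, fell by 0.60 on the log2 scale (SE 0.057), whereas POU2F2 had a log2FC of 0.05 (edgeR, adjusted p = 0.632). The call of POU2F1 was lost without shNT replicate 3 (−0.57) and without shPRKCN replicate 2 (−0.53). ERN1, the nuclease that splices XBP1 mRNA, had a log2FC of −0.55 (edgeR, adjusted p = 1.3e-21), short of 0.58, and RTCB, the ligase that joins the spliced ends, one of −0.16. Of the BACH2 relatives and small MAF partners, BACH1 fell by 0.62 and MAFF by 0.87 on the log2 scale, MAFG had a log2FC of 0.42 (edgeR, adjusted p = 6.3e-12) and MAFK one of −0.12 (edgeR, adjusted p = 0.196). BACH1 was not called without shNT replicate 2 (−0.55) or without shPRKCN replicate 3 (−0.57). The fourth gene called lower was TFEC. At an adjusted p under 0.05, 5 of the 22 were higher and 7 lower, near the 26.5% and 27.8% of all genes, with a median of −0.06.

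Genes tied to XBP1 in the secretory pathway were mostly lower. SPCS2 fell further than XBP1 on the log2 scale, and the other genes of the list less far. Of 22 such genes, all tested, 16 decreased and 2 increased (adjusted p below 0.05 without the fold limit), beside 27.8% and 26.5% of all genes. With the fold limit 3 of the 22 were called lower and 0 higher, beside 10.6% and 6.15% of all genes. Their median log2FC was −0.29. SPCS2, a subunit of the signal peptidase, fell from 245 ± 9.66 to 88.8 ± 5.71 CPM (SD, n = 3), with a log2FC of −1.47 (SE 0.041). It has annotated pseudogenes with which it may share reads. SEC24D, a COPII coat subunit, fell by 0.61 and SSR3, of the translocon-associated complex, by 0.59 on the log2 scale, both barely beyond the limit. SEC24D was not called without shNT replicate 2 (−0.56) or shPRKCN replicate 3 (−0.57), nor SSR3 without shPRKCN replicate 1, where it moved to −0.579. DNAJB9 and DNAJC3, co-chaperones of the endoplasmic reticulum, had log2FCs of −0.40 and −0.27, and EDEM1 one of −0.04 (edgeR, adjusted p = 0.308). DNAJB11 and SEC31A were the 2 higher genes, at log2FCs of 0.14 and 0.13.

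B cell genes that plasma cells switch off, some of them through PRDM1, did not move as a block. Of 26 genes 22 were listed and 16 tested, with 6 called higher and 3 lower, beside 6.15% and 10.6% of all genes tested, and a median log2FC of 0.17. CR2, the complement receptor CD21, rose from 25.1 ± 1.27 to 58.6 ± 2.23 CPM (SD, n = 3), with a log2FC of 1.23, and FCRL1, a surface receptor of B cells, by 1.18, although FCRL1 was at 0.41 and not called on log2(FPKM + 1). The same list held CIITA, the activator of MHC class II genes and a classical target of PRDM1 repression, which fell from 67.0 ± 3.49 to 26.8 ± 1.19 CPM (log2FC −1.32, SE 0.054). FCRLA (−1.37 on the log2 scale) also fell. The remaining called genes, named after their values were seen, were CD79B (0.72), CD86 (0.70), FCRL2 (1.26) and CR1 (2.55, on 0 to 5 shNT counts) above and CD72 (−1.86, on 1 to 9 shPRKCN counts) below, all on the log2 scale. At an adjusted p under 0.05, 8 of the 16 were higher and 3 lower, beside 26.5% and 27.8% of all genes.

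Of the plasma cell markers, 8 of 9 were tested. TNFRSF17 (BCMA) and SLAMF7 were called lower, at log2FCs of −1.13 and −0.97, and 0 were called higher, beside 10.6% and 6.15% of all genes. SDC1 (CD138) had a log2FC of 0.18 (edgeR, adjusted p = 2.1e-06) and JCHAIN one of 0.01 (edgeR, adjusted p = 0.712). The other tested markers had log2FCs of −0.23 (MZB1), −0.13 (FKBP11), 0.17 (DERL3) and −0.01 (CD38). At an adjusted p under 0.05, 2 of the 8 were higher and 4 lower, beside 26.5% and 27.8% of all genes, and the median was −0.07. Lists for other lineages were near the floor apart from single genes. Of 9 T and NK cell markers, CD3E rose to 1021 to 1150 counts with shPRKCN against 379 to 419 with shNT and lifted the summed level from 11.9 to 13.3 CPM to 28.3 to 32.5 CPM, while CD3D and CD3G stood at 0 to 1 counts. GNLY, named after its values were seen, was called lower in that list on few reads, at 16 to 24 counts with shNT and 5 to 14 with shPRKCN (log2FC −1.37, edgeR, adjusted p = 0.017). Of 4 erythroid markers only HBB was listed, and it fell from 80 to 145 counts to 35 to 41 counts per library. Whether these markers bear on the factors was not tested.

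**Figure D4:**
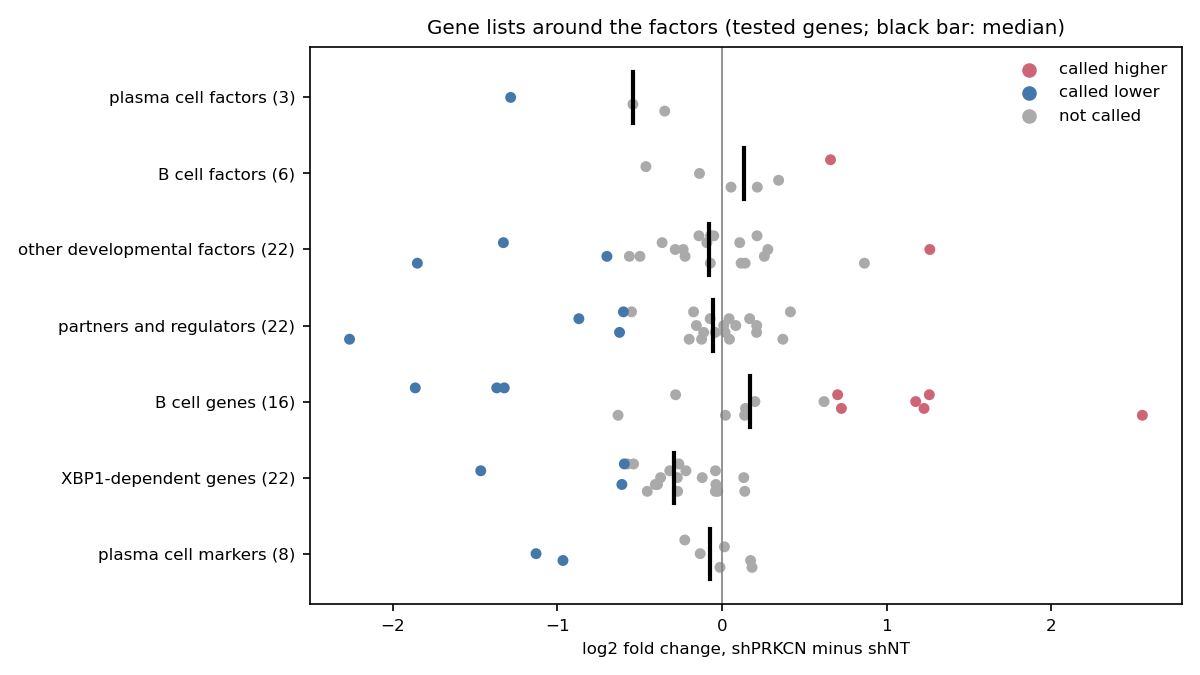
Log2FC of each tested gene, shPRKCN against shNT, in the lists of factors and related genes, with the number tested in parentheses, a black bar at the median and colours for genes called higher, called lower or not called. The XBP1-dependent genes lie mostly left of 0 with a median of −0.29, and the B cell genes spread to both sides with a median of 0.17.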

How the data were processed

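RNA of MM.1S cells was sequenced in 3 shNT and 3 shPRKCN libraries, grouped by the treatment label. The authors deposited raw counts per gene and, in a separate table, FPKM values for the same 21850 genes. The submitters' processing notes name FastQC, HISAT2, StringTie and the build GRCh38.p14, without versions. The counting program, the annotation release and the strand setting are not given in the sources used here, so reads of antisense or near-identical genes cannot be separated. No RefSeq gene that overlaps one of the 10 factors was listed in the count table.

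Here counts were TMM-normalized. The filterByExpr function kept 13971 genes, which edgeR 4.0.16 in R 4.3.3 fitted by its quasi-likelihood test, with Benjamini-Hochberg adjustment over all of them. The fold limit of 0.58 and the adjusted p of 0.05 are those of the paper's methods. At these limits the paper, using DESeq2, reports more genes in both directions than the 859 higher and 1475 lower called here. DESeq2 run here called 813 higher and 1445 lower. The reason for the difference was not tested. Standard errors are the log2 fold change divided by the square root of F. Alternatives were DESeq2 1.42.0, RLE and library-size scaling, 2 other count filters, fits without single libraries, a block for the replicate number, calls without a fold limit, and limma 3.58.1 on FPKM values after log2 with 1 or 0.1 added, once with an FPKM filter. Steps were tested on simulated data. Promoter windows came from RefSeq (GRCh38.p14) and were searched with Python 3.11.15.

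The factors and lists were chosen with earlier results of these data known. By rule, the 10 factors, PRKD3 and IRF4 were named, with the 3 genes most like each factor that had a mean of at least 50 counts. From each other list came up to 4 called genes with the largest change (mean of at least 50 counts, groups not overlapping). Further list genes, such as ERN1, MAFG, DNAJB11 and SDC1, were mentioned outside this rule, with results of these data known. Unlisted genes were left without a value. Same-numbered libraries did not deviate together (r between −0.10 and −0.01), and the labels give no shared batch, so the numbers were not taken to pair them.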

Additional observations from a re-analysis of the deposited data

How the results depend on the processing

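XBP1 was called lower and SPI1 higher under every alternative run on counts, with log2 fold changes of −1.30 to −1.26 for XBP1 and 0.61 to 0.72 for SPI1. On log2(FPKM + 1) the call of SPI1 was lost, leaving 0 factors called higher, and 315 genes were called higher and 648 lower, or 310 and 635 with an FPKM of at least 1 in 3 libraries. Adding 1 shrinks the folds of low genes by construction. On that scale ZBTB20 (−0.059), FCRL1 (0.41), BACH1 (−0.51), POU2F1 (−0.43), SEC24D (−0.54) and SSR3 (−0.57) were not called either, MYBL1 (−0.58) and FCRLA (−0.90) stayed called at smaller folds, and MITF moved to −0.23. With 0.1 added, ZBTB20 (−0.33), POU2F1 (−0.56) and SSR3 (−0.57) were not called. Without the fold limit 4 factors were lower, and 3700 genes were higher and 3877 lower, against 859 and 1475 with it. With the replicate number as a block, 854 genes were called higher and 1463 lower, and the calls among the factors did not change. Leaving out single libraries reversed 2 factors measured with few reads: the log2 fold change of EBF1 ran from −0.27 to 0.029, the latter without shPRKCN replicate 2, and that of SPIB from −0.23, without shPRKCN replicate 3, to 0.60. With library size alone as the scaling, POU2F1 (−0.579) and SSR3 (−0.57) were no longer called. Depth limits BCL6, SPIB, EBF1 and PAX5, whose counts were at most 44 per library.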
